A study of Rattus norvegicus with 24 samples.

Results

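The genes of the rat mitochondrial genome were followed across frontal cortex RNA-Seq libraries. They were chosen as all reference genes that the deposited tables place on the mitochondrial chromosome (MT), which gave 37 of 32883 reference genes. By strand and length they were 12 mRNA genes on the plus strand and 1 on the minus strand, 2 rRNA genes on the plus strand, and 14 tRNA genes on the plus strand with 8 on the minus strand. The tables name the mRNA genes by symbol and the others only by a clone number (AY172581.N), so genes of 60 to 75 bases were taken as tRNA genes, and those of 958 and 1571 bases as the small and large rRNA genes. All 37 passed the filter on low values.

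Mitochondrial DNA is compact and is transcribed from both strands as long precursors. Most mRNAs and both rRNAs are cut out of these precursors where tRNAs fold between them, and most messages then receive short poly(A) tails. The messages encode subunits of the respiratory chain and of ATP synthase, on which neurons of the cortex depend for most of their ATP, while the rRNAs and tRNAs serve only the ribosome inside the organelle.

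The animals were adult male Sprague-Dawley rats, which breathed an aerosol of tungsten particles, and tissue was taken 24 hours after exposure. GEO's labels give 8 libraries at 0 mg/m3 (Control), 8 at 5 mg/m3 (Low) and 8 at 80 mg/m3 (High), each with a library number from 49 to 72 that is used here as its name. Libraries were made with a stranded kit from poly(A)-selected RNA. That the 8 libraries of a group are 8 rats is taken from the study's methods.

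Values are scaled coverage: the mean read depth per base of a gene, divided by the summed depth of all reference genes in that library and multiplied by 1000000. Since depth per base already accounts for length, levels may be compared between genes of the same class. Between mRNA, rRNA and tRNA genes the comparison is limited, because poly(A) selection need not capture these classes alike. Capture may also differ between messages. The tables hold no read counts, so the depth behind a value is unknown and no counting interval can be given. The summed depth of the reference genes, in units of 1000000, ran from 1.67 to 2.82 in Control, from 1.64 to 3.07 in Low and from 1.77 to 2.67 in High. Markers of neurons (8 of 8 found), astrocytes (6 of 6) and oligodendrocytes (6 of 6) were present, and the summed neuronal markers ran from 3718 to 5251 in Control, from 3632 to 5420 in Low and from 2093 to 5183 in High. In bulk tissue, fewer cells of a type and less RNA per cell cannot be told apart.

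Libraries 56 (Control) and 57 to 62 (Low) stood apart from the other 17 in their mitochondrial tRNA genes, whereas the last Low libraries, 63 and 64, lay with Control and High. The set of 7 was known from earlier results of these data and is not a group of the study, so its values are shown apart with no test. The tables of 15 Control and High libraries list between 46334 and 66427 loci assembled from the reads, that of library 56 lists 159573, and Low tables list 0. On MT, Control and High tables list 13 to 15. Low exposure and this difference in the tables cannot be told apart, and what sets the table of library 56 apart was not tested.

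As a share of reference coverage, the mitochondrial genes together passed the threshold in no comparison. This share was 25.0% ± 2.90 in Control, 26.3% ± 4.01 in Low and 26.3% ± 1.70 in High (SD, n = 8 each). It ranged from 22.1% to 30.0% in Control, from 21.8% to 33.8% in Low and from 22.5% to 27.8% in High, so the groups overlapped. In exact permutation tests, two-sided and adjusted over 15 tests of 5 measures, the adjusted p was 0.728 for Low against Control, 0.468 for High against Control and 0.990 for Low against High. With assembled loci added to the denominator, Low lay above Control by 12.1 points and above High by 10.8, and with them in the numerator as well by 10.5 and 9.14 (exact permutation tests, adjusted p = 0.000233 each). Low tables list no such loci, so these settings divide the groups by different kinds of total. Within this share, mRNA genes took 88.8% in Control, 86.2% in Low and 89.0% in High on average, rRNA genes 10.1%, 11.5% and 10.1%, and tRNA genes 1.10%, 2.29% and 0.892%.

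Between groups, Low departed from Control and High in single mitochondrial genes, and High from Control did not. Against Control, 15 of the 37 genes passed the threshold in Low (limma across 15644 genes, Benjamini-Hochberg adjusted p under 0.05), 11 of them higher and 4 lower, which is 40.5% beside 6.11% of all genes tested (1.23% higher and 4.88% lower). Against High, 20 of the 37 passed in Low, 11 higher and 9 lower, or 54.1% beside 11.7% of all genes (5.3% higher and 6.39% lower). In High against Control, limma called 0 of the 37 and 0% of all genes, and the exact Wilcoxon rank-sum test 0 as well. At an unadjusted p under 0.05, limma had 1 of the 37 and 330 of all genes in that comparison. The median log2 difference of the 37 was 0.19 in Low against Control, beside 0.06 over all genes tested, 0.12 beside 0.09 in Low against High, and 0.06 beside -0.03 in High against Control. Low is compared with both other groups, so its 2 comparisons share the Low libraries.

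The count in Low against Control moved with several settings. With all libraries kept, it was 2 with only the compared groups in the fit, 5 with no filter on low values, 6 with no scaling and 16 with scaling on genes outside MT, beside 3.62%, 2.51%, 4.44% and 10.8% of all genes. In Low against High the counts were then 19, 18, 19 and 19, beside 13%, 4.45%, 7.99% and 16.7%. Since libraries 56 to 62 were set apart for their tRNA pattern, a fit that adjusts for them or omits them had to lose tRNA calls, and its counts are given as a description. With membership of that set as a covariate, 1 of the 37 genes was called in Low against Control, beside 2.31% of all genes, and 1 in Low against High, beside 2.26%. With the 7 libraries left out, which leaves 2 Low libraries, 1 gene was called in each, beside 2.09% and 2.18%. The gene was Mt-atp6 in all 4 cases. The exact Wilcoxon rank-sum test called 0 of the 37 in both comparisons, beside 2.38% and 7.33% of all genes. In none of the 37 did the 8 Low values lie wholly above or below those of Control or High, whereas 0.0831% of all genes lay wholly above Control, 1.44% below it, 0.262% above High and 2% below it. Leaving out 1 library at a time gave 4 to 19 genes in Low against Control. It left 4 to 7 without any one of Control libraries 49 to 55 or Low libraries 57 to 62, but 19 without Control library 56 or Low library 63, and 18 without Low library 64.

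**Figure D1:**
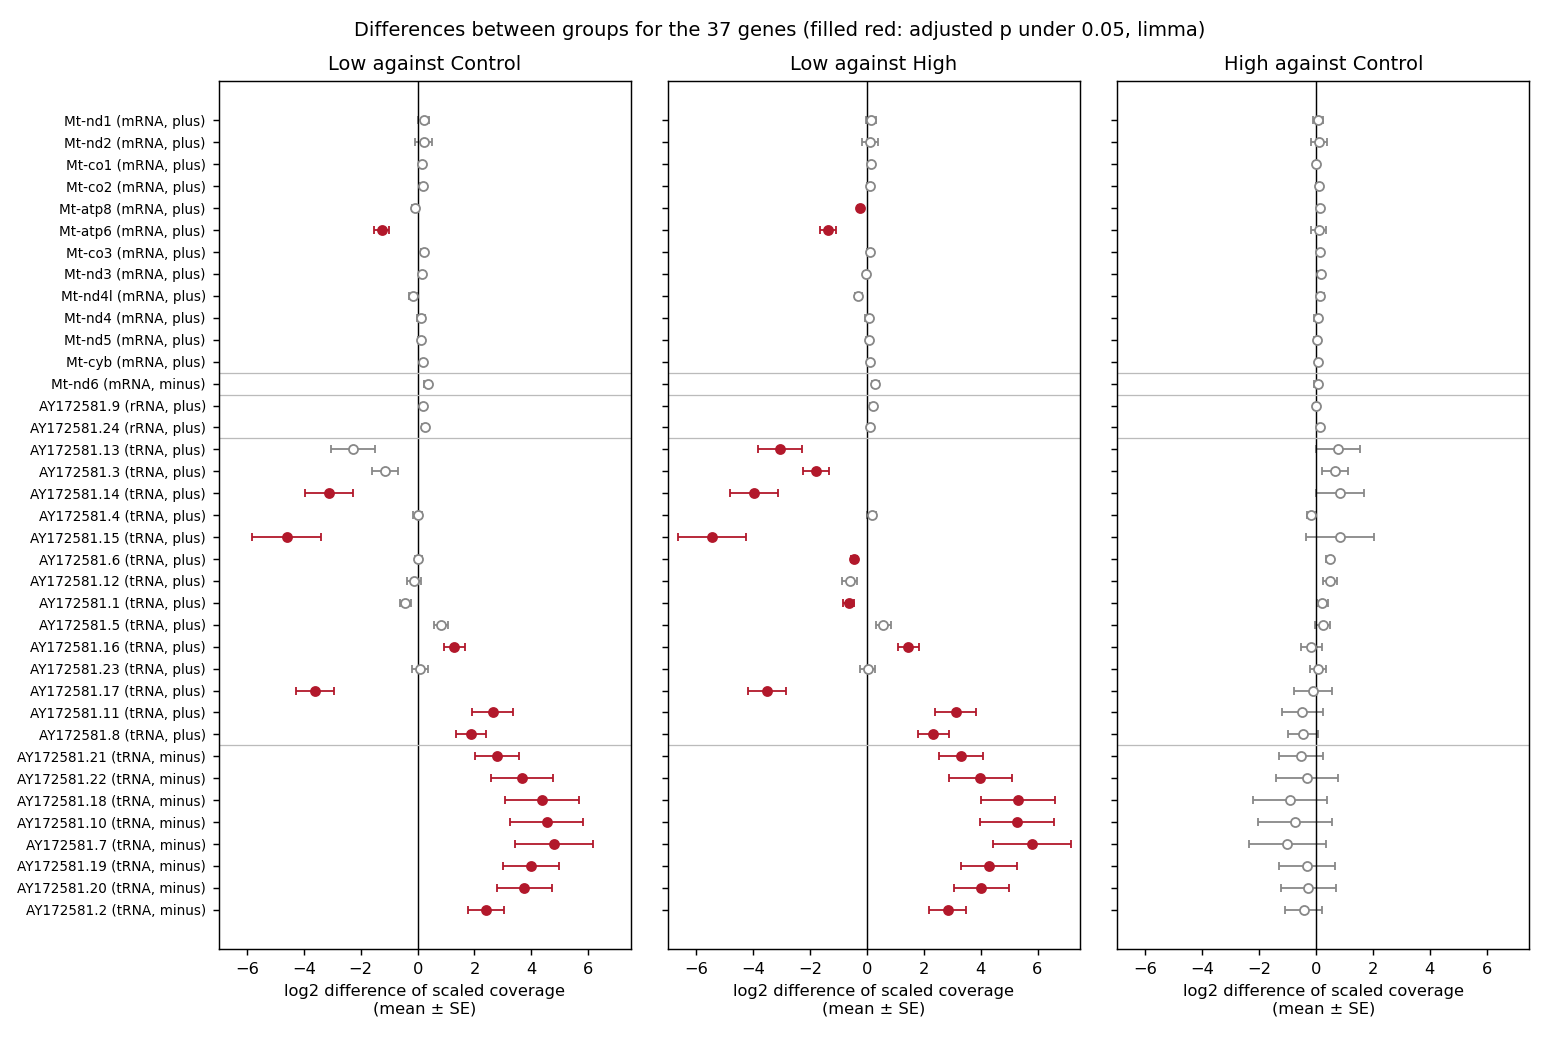
Log2 difference of scaled coverage, on the log2(value + 1) scale, with its standard error for each of the 37 genes in the 3 comparisons, ordered by class, strand and position; filled red points passed an adjusted p under 0.05 in limma. The 8 minus-strand tRNA genes all lie to the right in Low against Control and Low against High, the mRNA genes other than Mt-atp6 lie close to 0, and no point is filled in High against Control.

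Among the mRNA genes, Mt-atp6 was the only one called in Low against Control. It encodes subunit a of the ATP synthase (complex V), past which protons cross the membrane, and lies at MT:7919-8599 on the plus strand. Its scaled coverage was 26722, 30202 and 36084 in Control (lowest, median and highest of 8), 6046, 10458 and 38946 in Low, and 27270, 33518 and 35426 in High. Of the Low libraries, 6 lay below every Control and High library: 57 at 12677, 59 at 8585, 60 at 10831, 62 at 10085, 63 at 6046 and 64 at 7236. The other two, libraries 58 and 61, stood at 34927 and 38946, above the medians of Control and High. The log2 difference was -1.27 ± 0.28 (SE) from Control and -1.36 ± 0.28 from High, with limma adjusted p of 0.00495 and 0.00210.

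Mt-atp6 did not follow the division at libraries 56 to 62. Library 56 of that set had 33042, like the rest of Control, and libraries 63 and 64 outside it had the lowest values of all. Its difference from Control was -1.80 with the set as a covariate (adjusted p = 0.000623) and -2.20 with the set left out (adjusted p = 3.13e-10). From High it was -1.99 (limma adjusted p = 0.000523) and -2.30 (limma adjusted p = 1.30e-10). Leaving the set out drops libraries 58 and 61, where Mt-atp6 was not low, and keeps 2 Low libraries, 63 and 64. A larger difference there was thus fixed in advance and is given as a description. Leaving out each library in turn gave -1.50 to -1.12 from Control, with an adjusted p of at most 0.0141. The exact Wilcoxon rank-sum test did not call it, at an adjusted p of 0.318 against Control and 0.204 against High.

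The gene before it, Mt-atp8 (MT:7758-7961), encodes the other ATP synthase subunit made in the organelle and shares 43 bases with Mt-atp6 on the same strand. The next gene, Mt-co3, shares 1 base with it, so reads at both ends could be split between genes. Mt-atp8 had 23694, 25019 and 32174 in Control, 20447, 24082 and 29461 in Low, and 25798, 27740 and 31875 in High. It was called in Low against High only, at -0.24 ± 0.08 (limma adjusted p = 0.0487), and the groups overlapped. That call was lost with libraries 56 to 62 left out, at -0.10 (adjusted p = 0.672).

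**Figure D2:**
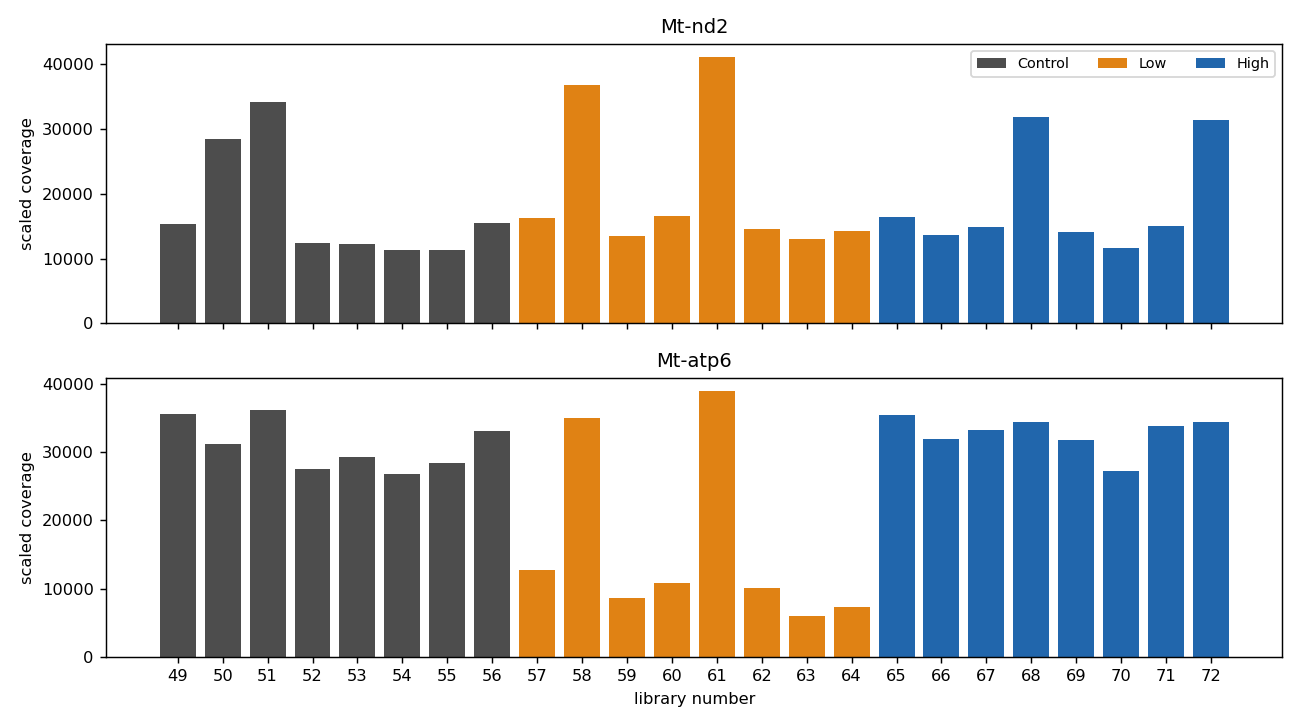
Scaled coverage of Mt-nd2, above, and Mt-atp6, below, as 1 bar per library in order of library number, coloured by group. Mt-nd2 is high in libraries 50, 51, 58, 61, 68 and 72, a pair in each group, and Mt-atp6 is low in 6 of the 8 Low libraries, with 58 and 61 as the exceptions.

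The 3 core subunits of cytochrome c oxidase (complex IV) were among the 5 mRNA genes with the highest medians in each group. Mt-co1 (MT:5323-6867), which holds the site where oxygen is reduced, led the 13 mRNA genes in all 3 groups, at 29718, 32156 and 38279 in Control, 32161, 37556 and 44405 in Low, and 28851, 33699 and 34976 in High. Mt-co2 (MT:7006-7689), the subunit that takes electrons from cytochrome c, had medians of 20308, 22772 and 23325 in Control, Low and High, over ranges of 16130 to 24578, 18427 to 28732 and 17400 to 25000. Mt-co3 (MT:8599-9382), the third core subunit, had medians of 21919, 26889 and 25499, over 18661 to 29117, 20965 to 32383 and 19929 to 28949. For each of the 3 genes all groups overlapped and no comparison passed the threshold.

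Mt-cyb (MT:14136-15278), the cytochrome b of complex III and the only subunit of that complex made in the organelle, showed the same. It had 13198, 14064 and 18366 in Control, 14752, 16594 and 18614 in Low, and 13727, 15915 and 16428 in High. Its difference from Control in Low was not called (limma adjusted p = 0.147).

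The 7 complex I genes encode the membrane arm of NADH dehydrogenase, and those on the plus strand held a wide range of levels. Mt-nd1 (MT:2740-3694) had medians of 13297, 15141 and 13849 in Control, Low and High, Mt-nd2 (MT:3904-4942) 13878, 15370 and 14955, and Mt-nd4 (MT:10160-11537) 13096, 14291 and 14171. Mt-nd4l (MT:9870-10166), which shares 7 bases with Mt-nd4, had 10070, 10153 and 12476, and Mt-nd5 (MT:11736-13565) 5766, 6359 and 6364. Mt-nd3 (MT:9451-9798) was the lowest of all mRNA genes in each group, at 3803, 4438 and 4571. None of these 6 genes was called in any comparison.

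Their spread was uneven, because Mt-nd2 had a high and a low range within every group. In Control, library 50 had 28535 and library 51 had 34131, while the other 6 ran from 11286 to 15530. In Low, library 58 had 36829 and library 61 had 41115, with the rest at 13005 to 16532. In High, libraries 68 and 72 had 31932 and 31375, and the rest ran from 11674 to 16356. The high range thus held a pair of libraries in each group.

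Mt-nd1 was highest in its group in the same 6 libraries, at 19168 and 23354 in Control, 25086 and 27516 in Low, and 21819 and 20766 in High. Mt-nd4, Mt-nd4l and Mt-nd5 had their 2 highest values of each group there too, except that Mt-nd4l in Low library 64 (11890) exceeded library 58 (11588). Mt-co2 ran the other way in Control and High. In Control, libraries 50 and 51 were the lowest at 16130 and 18296, and in High, libraries 68 and 72 at 17713 and 17400. Low library 58 was the lowest of its group at 18427, while library 61 had 21166. In Low, libraries 58 and 61 were also the 2 in which Mt-atp6 was not low. What the 6 libraries have in common was not tested. With them left out, an alternative chosen after seeing the data, 2 of the 37 genes were called in Low against Control, beside 2.72% of all genes, and 4 in Low against High, beside 8.67%.

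**Figure D3:**
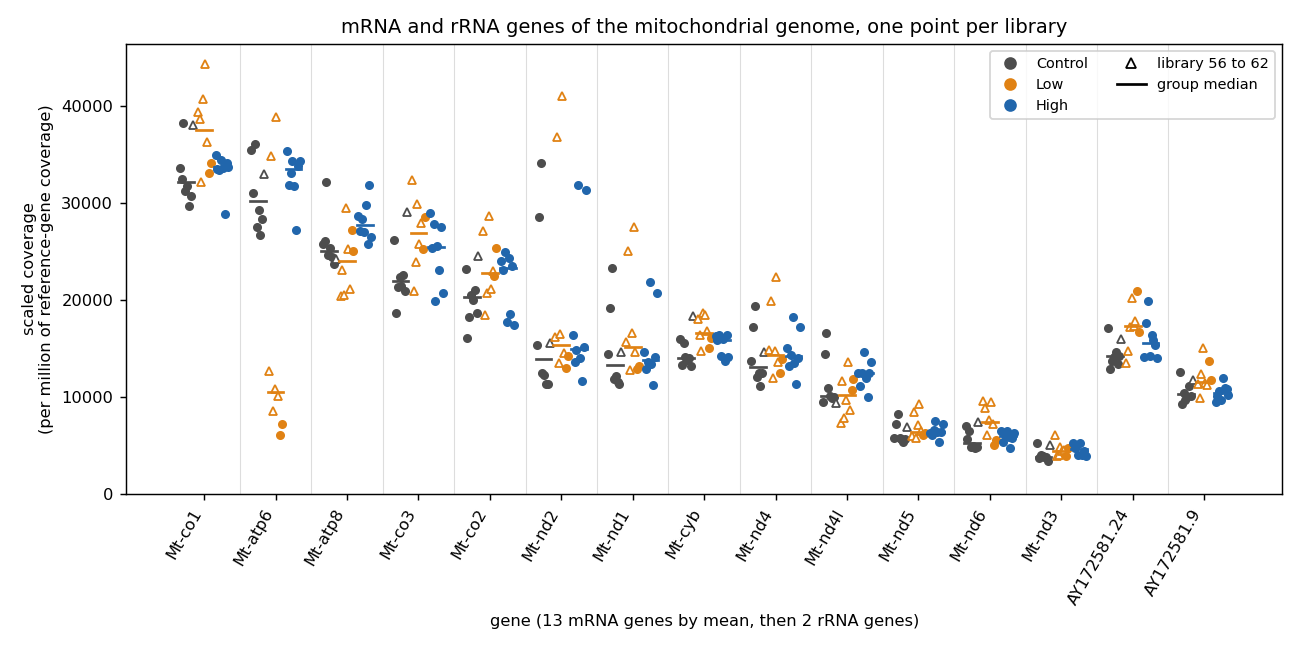
Scaled coverage of the 13 mRNA genes, in falling order of their mean, and the 2 rRNA genes, 1 point per library, with triangles for libraries 56 to 62 and a bar at each group's median. Groups overlap for every gene, Mt-atp6 has most Low libraries far below the rest, and Mt-nd2 has 2 high libraries in each group.

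Mt-nd6 (MT:13543-14061) is the only mRNA gene of the minus strand and encodes a further subunit of complex I. It shares 23 bases with Mt-nd5 on the other strand. Its scaled coverage was 4670, 5266 and 7406 in Control, 5058, 7377 and 9528 in Low, and 4764, 5947 and 6490 in High. By itself it was not called, at 0.36 ± 0.13 from Control (limma adjusted p = 0.120) and 0.30 ± 0.13 from High (adjusted p = 0.127).

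Set against the 12 plus-strand mRNAs of its own library, Mt-nd6 was higher in Low. The log2 ratio of its coverage to their mean was -1.67 ± 0.16 in Control, -1.33 ± 0.23 in Low and -1.70 ± 0.05 in High (SD, n = 8 each). Low exceeded Control by 0.34 (exact permutation test, adjusted p = 0.0182) and High by 0.37 (adjusted p = 0.00233). The 6 Low libraries 57 to 62 ran from -1.36 to -0.92 and library 56 was at -1.39, while libraries 63 and 64 had -1.63 and -1.60. With libraries 56 to 62 left out the difference from Control was 0.09 (exact permutation test, adjusted p = 0.741) and from High 0.08 (adjusted p = 0.278). The 12 genes of the denominator include Mt-atp6, whose median coverage for Low was 10458, below 30202 for Control and 33518 for High. A lower Mt-atp6 raises this ratio, and how much of the difference comes from that gene was not tested. Low libraries 58 and 61, where Mt-atp6 was not low, had ratios of -1.29 and -1.36.

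The 2 rRNA genes overlapped between all groups and were called in no comparison. The small rRNA gene AY172581.9 (MT:68-1025) had 9288, 10268 and 12532 in Control, 9856, 11581 and 15083 in Low, and 9503, 10438 and 11944 in High. The large rRNA gene AY172581.24 (MT:1094-2664) had 12857, 14204 and 17091 in Control, 13496, 17277 and 20938 in Low, and 13991, 15573 and 19859 in High. In scaled coverage the large rRNA gene thus stood near Mt-nd1, the gene that follows it. The log2 ratio of mean rRNA to mean plus-strand mRNA coverage was -0.52 ± 0.20 in Control, -0.31 ± 0.35 in Low and -0.53 ± 0.21 in High. The adjusted p was 0.306, 0.990 and 0.306 for Low against Control, High against Control and Low against High (exact permutation tests).

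On the coverage column, all 8 minus-strand tRNA genes changed in one direction. They lie singly or, in one case, as a run of 4 between Mt-nd2 and Mt-co1, where mammals have a cluster of tRNA genes around the origin of light-strand replication. In Low, 8 of 8 rose against Control and 8 of 8 rose against High, by 2.40 to 4.80 and by 2.84 to 5.81 on the log2 scale. Counting upward calls alone, 1.23% of all genes tested were called in the first comparison and 5.3% in the second. In High against Control 0 of 8 were called. AY172581.2 turned on the other columns, to -0.53 on FPKM and -0.95 on TPM against Control, and to -0.67 and -1.10 against High. AY172581.21 lost its call against Control on TPM, at 2.02 (limma adjusted p = 0.0774). With 0.1 in place of 1 added before the logarithm, AY172581.7, AY172581.18 and AY172581.22 were not called against Control (limma adjusted p of 0.0502, 0.0509 and 0.0545). The sources used here do not say whether reads were counted by strand. Without strand, reads of a minus-strand tRNA gene and of plus-strand precursors across it cannot be told apart.

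AY172581.7 (MT:5256-5321), which borders Mt-co1, showed the widest gap. Its scaled coverage was 0.746, 1.44 and 583 in Control, 0.662, 519 and 686 in Low, and 0, 1.37 and 5.43 in High, where 1 library lists it at 0. Control reached 583 only through library 56, and in the other 7 Control libraries the gene ran up to 3.13. In Low, libraries 57 to 62 had 363 to 686, and libraries 63 and 64 had 1.24 and 0.662. The log2 difference was 4.80 ± 1.36 from Control (limma adjusted p = 0.0376) and 5.81 ± 1.36 from High (adjusted p = 0.00670).

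The rest of the run between Mt-nd2 and Mt-co1 behaved alike. AY172581.10 (MT:5185-5252) lay between 432 and 912 in libraries 56 to 62 and between 1.02 and 6.08 in the other 17. AY172581.18 (MT:5081-5152) lay at 536 to 1144 against 1.27 to 11.1, and AY172581.22 (MT:5010-5078) at 249 to 520 against 1.60 to 10.6. The median over the 7 libraries was 460 times that over the 17 for AY172581.7, 236 times for AY172581.10, 221 times for AY172581.18 and 85.1 times for AY172581.22.

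Outside the run, AY172581.19 (MT:6865-6933), which shares 3 bases with the end of Mt-co1 on the other strand, was the most covered minus-strand tRNA gene. It ran from 1552 to 2991 in libraries 56 to 62 and from 13.6 to 56.1 in the others. AY172581.20 (MT:14062-14130), next to Mt-nd6, ran from 777 to 1463 against 9.80 to 31.2. AY172581.21 (MT:3761-3831) ran from 123 to 288 against 5.10 to 14.2, and AY172581.2 (MT:15348-15415), the last member along the sequence, from 352 to 542 against 21.4 to 40.0. For all 8 genes the 7 libraries lay above the 17 without overlap, which held for 0.607% of all genes tested, and the set was chosen for this pattern.

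**Figure D4:**
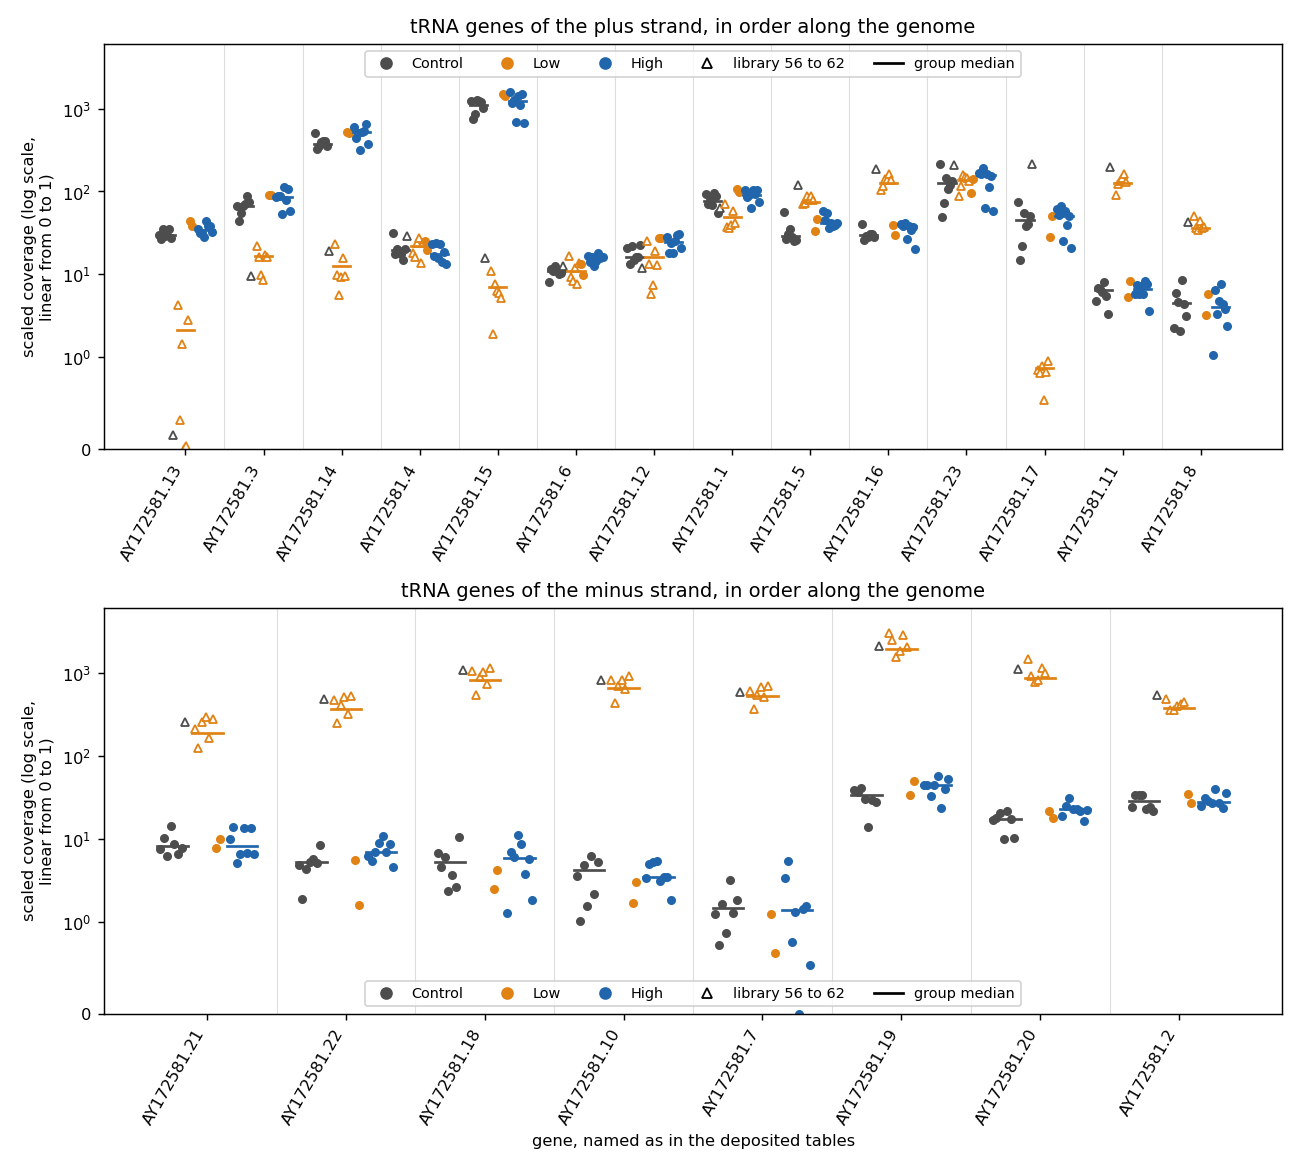
Scaled coverage of the tRNA genes on a log axis that is linear between 0 and 1, plus strand above and minus strand below, in order along the genome, 1 point per library with triangles for libraries 56 to 62 and a bar at each group's median. All 8 minus-strand genes are higher in the triangles, including the single Control triangle, while on the plus strand some genes are higher and some lower.

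On the plus strand the same 7 libraries had some tRNA genes high and others low. Of the 14 genes, 4 lay above the other 17 libraries in all 7, 4 lay below, and 6 overlapped, beside 0.607% of all genes above and 2.5% below. The 4 low ones lay in the first part of the sequence, before Mt-nd2, where AY172581.4 overlapped. AY172581.15 (MT:3835-3903), which runs directly into Mt-nd2, was the tRNA gene with the highest mean, at 660 to 1589 in the 17 libraries, and had 1.91 to 15.7 in the 7. AY172581.14 (MT:2665-2739), between the large rRNA gene and Mt-nd1, had 318 to 648 against 5.59 to 23.1 in the 7.

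AY172581.3 (MT:1026-1093), between the rRNA genes, had 43.9 to 112 in the 17 libraries and 8.53 to 21.9 in the 7. AY172581.13 (MT:1-67), before the small rRNA gene, had 26.6 to 44.4 in the 17 and 0 to 4.26 in the 7, where library 60 lists it at 0. Against High, all 4 of these genes fell in Low. Against Control, AY172581.15 fell by 4.61 ± 1.20 (limma adjusted p = 0.0226) and AY172581.14 by 3.12 ± 0.85 (adjusted p = 0.0293), and the other two were not called, with adjusted p of 0.168 and 0.0921.

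The 4 high ones on the plus strand lay in the second part of the sequence. AY172581.11 (MT:11665-11735), just before Mt-nd5, had 91.9 to 195 in the 7 libraries against 3.37 to 8.44 in the 17. AY172581.16 (MT:9800-9867), before Mt-nd4l, had 105 to 187 against 20.2 to 41.8. AY172581.8 (MT:15280-15346), after Mt-cyb, had 34.0 to 50.1 against 1.06 to 8.62, and AY172581.5 (MT:9383-9450), before Mt-nd3, had 69.7 to 120 against 25.4 to 58.1. The first 3 rose in Low against both groups, while AY172581.5 was not called, at 0.82 ± 0.26 from Control (limma adjusted p = 0.0593) and 0.58 ± 0.26 from High (adjusted p = 0.134).

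AY172581.17 (MT:11606-11665), between AY172581.23 and AY172581.11, showed library 56 and libraries 57 to 62 on opposite sides of the rest. It had 0.541 to 0.964 in the 6 Low libraries 57 to 62, 28.5 and 50.7 in Low libraries 63 and 64, 15.1 to 73.8 in Control libraries 49 to 55 and 21.1 to 67.1 in High. In library 56 it reached 214, the highest value of all. Low was lower by 3.61 ± 0.67 on the log2 scale against Control (limma adjusted p = 0.00101) and by 3.51 ± 0.67 against High (adjusted p = 0.00122). With libraries 56 to 62 left out the difference was 0.016 from Control and -0.19 from High (adjusted p of 0.995 and 0.870). With the set as a covariate it was -2.43 and -2.10 (adjusted p of 0.130 and 0.266).

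The remaining plus-strand tRNA genes were not called in Low against Control. AY172581.23 (MT:11538-11605), after Mt-nd4, was the third most covered of its strand, with medians of 126, 137 and 158 in Control, Low and High. AY172581.12 (MT:6937-7004), before Mt-co2, had 16.3, 16.3 and 24.5, and AY172581.4 (MT:3695-3763), after Mt-nd1, had 19.6, 21.8 and 17.5. AY172581.1 (MT:7693-7756), between Mt-co2 and Mt-atp8, had 77.3, 49.7 and 91.4 and was lower in Low than in High by 0.64 ± 0.20 (limma adjusted p = 0.0376).

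AY172581.6 (MT:4943-5008), right after Mt-nd2, had the lowest mean of all 37 genes and was not called in High against Control. Its scaled coverage was 8.19, 11.0 and 12.6 in Control, 7.71, 10.9 and 16.5 in Low, and 12.8, 16.0 and 18.2 in High. Every High library lay above every Control library, which held for 0.00639% of all genes tested, this 1 gene. The difference was 0.47 ± 0.12, with an unadjusted p of 0.000597 and an adjusted p of 0.999 in limma. Low was lower than High by 0.45 ± 0.12 (limma adjusted p = 0.0144), with overlapping groups.

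Summed over genes, the tRNA to mRNA ratio and the strand ratio of the tRNAs were higher on average in Low, with overlapping groups. The log2 ratio of mean tRNA to mean plus-strand mRNA coverage per gene was -7.37 ± 0.75 in Control, -6.16 ± 0.63 in Low and -7.53 ± 0.43 in High (SD, n = 8 each). Mt-atp6 is among the genes of that denominator, and its part in the difference was not tested. Low exceeded Control by 1.20 (exact permutation test, adjusted p = 0.0182) and High by 1.36 (adjusted p = 0.00233). The log2 ratio of minus-strand to plus-strand tRNA coverage was -2.61 ± 2.47, 2.18 ± 3.63 and -3.34 ± 0.49, higher in Low by 4.79 (adjusted p = 0.0389) and 5.52 (adjusted p = 0.0182). Both calls of the strand ratio and the call of the tRNA to mRNA ratio against Control were lost on medians (exact permutation tests, adjusted p = 0.129 each), on the FPKM and TPM columns (0.0653 to 0.105) and without libraries 50, 51, 58, 61, 68 and 72 (0.0812 each).

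Both ratios followed the set of 7 libraries. The strand ratio ran from 3.44 to 4.57 in libraries 56 to 62 and from -3.83 to -2.61 in the other 17, with Low libraries 63 and 64 at -3.74 and -3.64. The minus strand accordingly held 4.79% to 6.80% of the mitochondrial coverage in the 7 libraries and 2.14% to 2.70% in the 17. With the 7 left out, the strand ratio of Low was -0.22 from Control (exact permutation test, adjusted p = 0.769) and -0.35 from High (adjusted p = 0.708). The tRNA to mRNA ratio was then 0.52 above Control (adjusted p = 0.250) and 0.44 above High (adjusted p = 0.278), where the smallest unadjusted p is 0.0278 for 2 against 7 libraries and 0.0222 for 2 against 8.

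**Figure D5:**
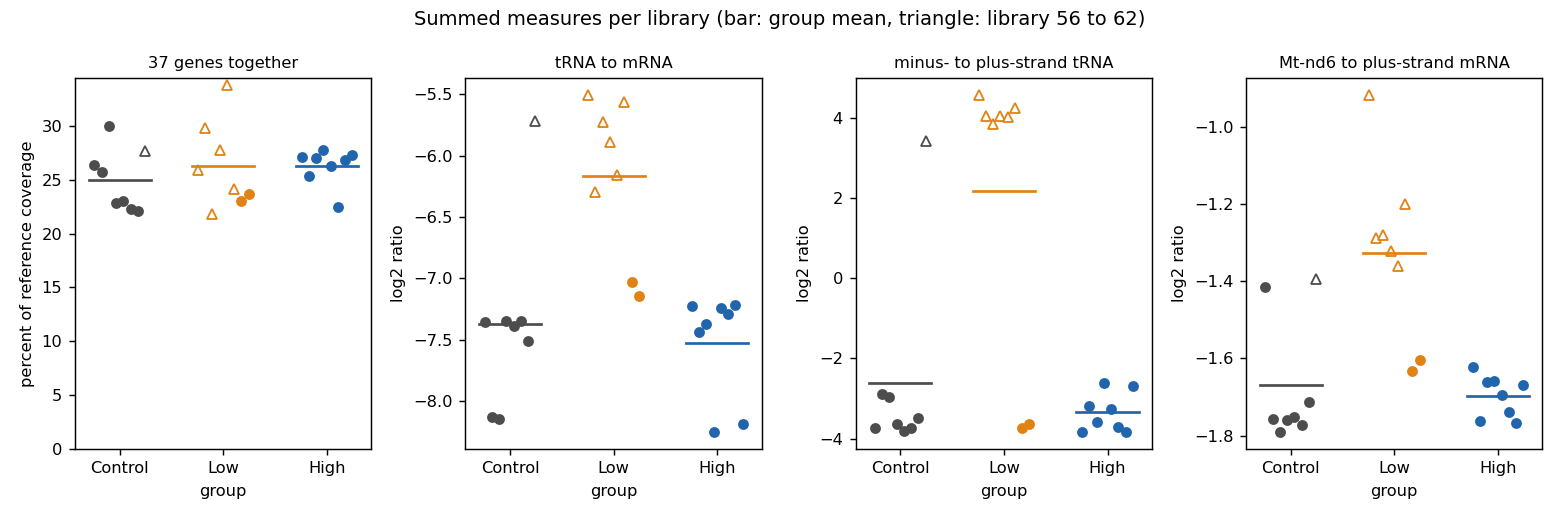
For each library by group, the share of reference coverage on the 37 genes (percent) and 3 log2 ratios. The first ratio is of mean tRNA to mean plus-strand mRNA coverage. The others are of minus-strand to plus-strand tRNA coverage, and of Mt-nd6 to the mean of the plus-strand mRNA genes. Bars mark group means, and triangles mark libraries 56 to 62. The share overlaps between groups, while all 7 triangles stand above the circles in each of the 3 ratios.

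The column of the tables that was used changed both counts and single genes. In Low against Control 33 of the 37 genes were called on FPKM, beside 89.7% of all genes, and 22 on TPM, beside 25.4%. In Low against High 30 were called on FPKM, beside 89.8%, and 22 on TPM, beside 25.2%. In Control and High tables the deposited FPKM and coverage of 9 of the 37 genes did not keep the ratio of the other genes within 2% in at least 1 table, and in Low tables this held for 0. The 9 were Mt-nd5, Mt-nd6, the plus-strand AY172581.8 and the minus-strand AY172581.2, AY172581.7, AY172581.18, AY172581.19, AY172581.21 and AY172581.22. AY172581.8 and AY172581.21 were off in all 8 Control and all 8 High tables, and AY172581.2 in 7 and 8. Mt-nd5 was off in 6 and 5, and AY172581.22 in 3 and 4. AY172581.19 was off in 2 Control tables, and AY172581.7, AY172581.18 and Mt-nd6 in 1 each. On the FPKM column the difference of AY172581.8 and AY172581.2 in Low against Control was -2.73 and -0.53, in place of 1.87 and 2.40 on coverage, and on the TPM column -3.22 and -0.95. The direction of these 2 genes is thus not the same on all 3 columns.

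Over the genome as a whole, 95 of the 15644 genes tested (0.607%) were higher in all 7 libraries than in the other 17, and 12 of the 95 were mitochondrial tRNA genes. Another 391 (2.5%) were lower in all 7, of which 4 were mitochondrial. RNAs that carry no poly(A) tail, such as spliceosomal and 7SK RNAs, summed to 2099 to 4198 in the 7 libraries and to 1571 to 3547 in the 17, which overlap. Their part in the tRNA pattern was not tested.

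Few of the nuclear genes that serve mitochondrial gene expression were called. Of 64 listed genes for transcription, processing, modification, decay and translation of mitochondrial RNA, 62 were tested. In Low against Control 2 were called, 3.23% beside 6.11% of all genes, in High against Control 0, and in Low against High 6, or 9.68% beside 11.7%. Their median log2 difference was 0.07, -0.01 and 0.08, beside 0.06, -0.03 and 0.09 over all genes.

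Trnt1, which adds the CCA end to tRNAs in the mitochondrion and the cytosol, was higher in Low by 0.27 ± 0.08 than in Control (limma adjusted p = 0.0285) and by 0.33 ± 0.08 than in High (adjusted p = 0.00454). Rpusd3, a pseudouridine synthase of mitochondrial RNA, was lower by 0.44 ± 0.08 (adjusted p = 0.00121) and by 0.60 ± 0.08 (adjusted p = 1.45e-05). Against High alone, Low was higher in Tfb2m, the transcription factor that opens mitochondrial promoters, by 0.24 ± 0.06 (limma adjusted p = 0.00809). Trmt10c, a subunit of mitochondrial RNase P, was higher in that comparison by 0.29 ± 0.08 (limma adjusted p = 0.0190). Fastk, which protects the Mt-nd6 message, and Gtpbp3, which modifies tRNA wobble bases, were lower there by 0.18 ± 0.06 and 0.22 ± 0.06 (limma adjusted p of 0.0495 and 0.0247). With libraries 56 to 62 as a covariate, 0 of the 62 were called in Low against Control, beside 2.31% of all genes, and 1 in Low against High, beside 2.26%. The differences from High were then 0.26 for Tfb2m, 0.25 for Trmt10c and -0.27 for Gtpbp3, about as large as before. Those of Trnt1 and Fastk were smaller, at 0.15 and -0.061. Tfb2m and Trmt10c depended on the scaling. With each library scaled by the median ratio of its genes to their average over libraries, they were 0.15 and 0.20 above High. Neither was then called (limma adjusted p of 0.144 and 0.0620). With no scaling they were 0.036 and 0.087 above High (limma adjusted p of 0.963 and 0.901).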

How the data were processed

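Libraries of 24 rats, by the study's methods, were grouped by the concentration in GEO's labels. All 24 titles hold the word Repeat, which is not explained, and the extract protocol speaks of cell lines, so p-values measure the spread between these libraries. Per the labels' processing notes, reads were handled with FastQC, Trimmomatic, TopHat2 and StringTie on build mRatBN7.2, with no versions given, and some gene names in the tables belong to an older assembly, so positions are printed as the tables give them. The authors deposited 1 StringTie table per library, with coverage as mean depth per base, an unscaled signal, beside an FPKM column scaled by the authors for length and library size and a TPM column. In Low tables the deposited TPM sums to 1000000, whereas in Control and High tables assembled loci alone do so, and that column was treated there as a deposited score. Coverage was summed per gene identifier, divided by the sum over all reference genes and multiplied by 1000000.

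The filter kept 15644 genes, those whose scaled coverage averaged 1 or more in the 24 libraries. Groups were compared with limma 3.58.1 (trend, robust) in R 4.3.3 on log2(value + 1), two-sided, with all 3 groups in 1 fit and Benjamini-Hochberg adjustment over all genes tested at 0.05. A difference on this scale understates the change of low genes. Summed measures were compared with two-sided exact permutation tests of the difference of means in Python 3.11.15 with scipy 1.17.1, adjusted over 15 tests. The smallest p that 8 against 8 libraries allow is 0.0001554. Both were tested on simulated data. All mRNA and rRNA genes are named, as are tRNA genes past the threshold or among the 3 highest and 3 lowest of their strand, and nuclear genes past it. The remaining tRNA genes were added after their values were seen. Members, lists and the set of libraries 56 to 62 were chosen with earlier results of these data known. Alternatives were another pseudocount, filter, scaling or column, the exact Wilcoxon rank-sum test, only the groups compared, and libraries left out. No sequence of the mitochondrial genome was used here.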

Additional observations from a re-analysis of the deposited data

Results flagged for a closer look

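In each group of 8 libraries the highest and the lowest value of every member and summed measure were compared with the rest of the group, and a value was listed where its gap to the nearest other library divided by the range of the 8 values exceeded Dixon's 95% limit for 8 values. Of 126 sets of 8 values, 23 were listed. Chance would give about 1 in 20, or 6.3, if the sets were independent. They are not, since the summed measures are built from the same genes.

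Of the 23, 18 belong to Control library 56. That library had been set apart beforehand for its tRNA pattern, so its flags in tRNA genes and tRNA ratios are no test. On the minus strand it stood above the other 7 Control libraries in all 8 tRNA genes: AY172581.2 at 542, AY172581.7 at 583, AY172581.10 at 819, AY172581.18 at 1091, AY172581.19 at 2117, AY172581.20 at 1096, AY172581.21 at 255 and AY172581.22 at 487. On the plus strand it stood above them in AY172581.5 at 120, AY172581.8 at 43.3, AY172581.11 at 195, AY172581.16 at 187 and AY172581.17 at 214. It stood below them in AY172581.13 at 0.157, AY172581.14 at 19.0 and AY172581.15 at 15.7. Its log2 tRNA to mRNA ratio of -5.72 and its log2 ratio of minus-strand to plus-strand tRNA of 3.44 were also far above the rest of Control, which ran from -8.15 to -7.34 and from -3.81 to -2.89.

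High library 70 was below the other High libraries in Mt-co1 at 28851, in Mt-atp6 at 27270 and in the share of reference coverage on MT at 22.5%. Control library 51 had the highest Mt-atp8 of Control at 32174, against 23694 to 26149 in the others. Low library 57 had the highest Mt-nd3 of Low at 6044, against 3857 to 4780.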

How the results depend on the processing

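Settings not named here kept the direction and the side of the threshold of the summed measures. In Low against Control, the count of 15 mitochondrial genes was 5 with no filter, 6 with no scaling, 33 on the FPKM column, 2 with only the groups compared, 1 with libraries 56 to 62 as a covariate, 1 with them left out, 2 with libraries 50, 51, 58, 61, 68 and 72 left out (chosen after seeing the data) and 0 by the exact Wilcoxon rank-sum test. In Low against High, the count of 20 was 1, 1, 4 and 0 under the last 4 of these. On the FPKM column 12393 of 13816 genes were called in Low against Control, with a median of 0.53 over all genes, and 0.52 in Low against High. The count was 22 on TPM in Low against Control, and 30 on FPKM and 22 on TPM in Low against High. Unscaled, the median over all genes in High against Control was 0.14. Over single libraries left out, the count ran from 4 to 19 in Low against Control.

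The nuclear list gave 2 calls in Low against Control, but 1 with no filter, 0 with no scaling, 7 with scaling on genes outside MT, 58 on FPKM, 11 on TPM, 1 with only the groups compared, 0 with libraries 56 to 62 as a covariate or left out, 1 by the Wilcoxon test, and 1 to 3 over single libraries left out. Of all genes, 10.8% were called with scaling outside MT, 89.7% on FPKM and 25.4% on TPM. The share was 2.51% with no filter, 4.44% with no scaling, 3.62% with only the groups compared and 2.38% by the Wilcoxon test. It was 2.31% with the covariate and 2.09% with the 7 libraries left out. In Low against High its 6 calls became 3 with no filter, 1 with no scaling, 59 on FPKM, 9 on TPM, 1 with the covariate and 0 with the 7 libraries left out. In the same order, 4.45%, 7.99%, 89.8%, 25.2%, 2.26% and 2.18% of all genes were called.

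The share of reference coverage on MT in Low lay above Control by 12.1 points with all identifiers in the denominator and by 10.5 with assembled loci counted. It lay above High by 10.8 and 9.14 (adjusted p = 0.000233 each, exact permutation tests). Low tables list no assembled loci, so these settings divide the groups by different kinds of total. The share in Low was -1.23 from Control with libraries 56 to 62 left out. From High it was 1.64 without Mt-atp6 (an alternative added later), and -1.10 to 0.61 over single libraries left out. For the tRNA to mRNA ratio, Low against Control missed the threshold at 1.35 on medians, 0.52 with libraries 56 to 62 left out, 0.82 on FPKM and on TPM, and 0.97 without libraries 50, 51, 58, 61, 68 and 72. Low against High did so at 0.44 with libraries 56 to 62 left out. For the strand ratio of tRNAs, Low against Control missed it at 7.60 on medians, 2.88 on FPKM and TPM, and 4.06 without the 6 libraries, turned to -0.22 with libraries 56 to 62 left out, and ran from 4.45 to 5.65 over single libraries left out (adjusted p 0.00932 to 0.0571). Low against High missed it at 7.46 on medians, 3.42 on FPKM and TPM and 5.13 without the 6 libraries, and turned to -0.35. For the Mt-nd6 ratio, Low missed it at 0.090 against Control and 0.079 against High with libraries 56 to 62 left out, and at 0.31 against Control without the 6 libraries. In High against Control, signs of uncalled values turned. The tRNA to mRNA ratio was 0.040 on medians and 0.077 without libraries 56 to 62, the strand ratio 0.14 and 0.13, and the Mt-nd6 ratio 0.072 and 0.011. Over single libraries left out these ran from -0.27 to 0.077, from -0.90 to 0.13 and from -0.045 to 0.011, and the rRNA to mRNA ratio from -0.062 to 0.026.

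Single genes turned sign as follows, on the log2 scale. On FPKM, Low against Control gave -0.53 for AY172581.2, -2.73 for AY172581.8 and 0.021 for Rpusd3, and Low against High gave -0.67 for AY172581.2, -2.77 for AY172581.8, 0.23 for Mt-atp8, 0.27 for Fastk and 0.18 for Gtpbp3. On FPKM these 6 genes lay below the median of all genes, so of the 6 only AY172581.2 and AY172581.8 changed side relative to it. On TPM, AY172581.2 and AY172581.8 gave -0.95 and -3.22 against Control and -1.10 and -3.26 against High. With libraries 56 to 62 as a covariate, Low against Control gave -0.035 for AY172581.2, -0.25 for AY172581.7, -0.28 for AY172581.10, -0.087 for AY172581.11, 0.0071 for AY172581.14, -0.072 for AY172581.16, -0.39 for AY172581.18, -0.068 for AY172581.21 and -0.41 for AY172581.22. Low against High gave -0.11 for Mt-nd6, -0.085 for AY172581.2, 0.18 for AY172581.3, -0.24 for AY172581.7, -0.49 for AY172581.10, -0.15 for AY172581.11, 0.34 for AY172581.13, -0.17 for AY172581.16, -0.43 for AY172581.18, -0.11 for AY172581.19, -0.30 for AY172581.20, -0.099 for AY172581.21 and -0.91 for AY172581.22. With those libraries left out, Low against Control gave -0.039 for Mt-nd6, -0.33 for AY172581.7, -0.31 for AY172581.10, 0.41 for AY172581.14, 0.46 for AY172581.15, 0.016 for AY172581.17, -0.42 for AY172581.18 and -0.48 for AY172581.22. Low against High gave -0.15 for Mt-nd6, 0.22 for AY172581.1, 0.16 for AY172581.3, -0.31 for AY172581.7, -0.52 for AY172581.10, 0.24 for AY172581.13, 0.10 for AY172581.14, 0.37 for AY172581.15, -0.45 for AY172581.18, -0.0023 for AY172581.19, -0.18 for AY172581.20, -0.011 for AY172581.21 and -0.96 for AY172581.22. The 7 libraries were chosen for their tRNA pattern, so these turns of tRNA genes are no test. The cause of the other changes was not tested. No paired analysis was possible because the groups share no replicate numbers. The absence of read counts limits what can be said of the tRNA genes with the lowest coverage.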

Other observations

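The assembled loci, which entered no comparison of single genes, gave another view of the minus strand in tables that list them. Away from Mt-nd6, the assembled minus-strand loci on MT had a median deposited coverage of 22.2 over 68 loci in Control libraries 49 to 55 and of 31.7 over 80 loci in High. In Control library 56 the 11 such loci had a median of 414 and reached 8552, against highest values of 169 in libraries 49 to 55 and 257 in High. Low tables list 0 such loci, so libraries 57 to 62 could not be read in this way.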
